A study of Homo sapiens with 27 samples.

Results

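The human mitochondrial genome carries 13 protein-coding genes. Of these, 6 encode subunits of respiratory complexes III, IV and V: MT-CYB (complex III), MT-CO1, MT-CO2 and MT-CO3 (complex IV), and MT-ATP6 and MT-ATP8 (complex V). Their rows were taken by Ensembl gene ID from a table of 34464 genes, and all 6 were found and had a mean above 1 FPKM (fragments per kb of transcript, scaled to library size, a level that allows for transcript length). The other 7 mRNAs of the mitochondrial genome encode subunits of complex I.

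The libraries come from a study of TPR, a protein of the nuclear pore basket, and of the RNAs that need it to leave the nucleus. The cells are U2OS, a line from a human osteosarcoma, in which TPR was depleted over 5 days with 'TPR A' or with 'TPR D', a pair of shRNAs brought in by lentivirus. Control cells were infected as well, with a control shRNA, and all samples come from that single line. Poly(A)+ RNA was sequenced from 3 fractions (nuclear, cytoplasmic/ER, total) of 3 replicates for each shRNA, which makes 27 libraries in 9 groups of 3. The fractions were made with detergent, and 'total' was a portion of the same cells set aside beforehand. The study's methods call the replicates biological, and the labels number them.

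Mitochondrial mRNAs are transcribed inside the organelle as long precursors from both strands of a circular genome, cut out mostly at the tRNAs that lie between them, and given short poly(A) tails by the mitochondrial poly(A) polymerase MTPAP. They have no introns and are translated on mitochondrial ribosomes, so they never pass a nuclear pore. Cytochrome b, the product of MT-CYB, is the electron-carrying membrane subunit of complex III. MT-CO1, MT-CO2 and MT-CO3 form the core of cytochrome c oxidase, complex IV, which passes electrons to oxygen. MT-ATP6 and MT-ATP8 belong to the membrane part of ATP synthase, complex V, and share a bicistronic mRNA.

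All 6 genes lie on the same strand of the mitochondrial genome (GRCh37, annotation of GENCODE release 44 placed on that build), and each is a single exon. MT-CO1 (ENSG00000198804) spans chrM:5904-7445, or 1542 nt, and MT-CO2 (ENSG00000198712) spans chrM:7586-8269, or 684 nt. MT-ATP8 (ENSG00000228253) spans chrM:8366-8572, only 207 nt, and MT-ATP6 (ENSG00000198899) spans chrM:8527-9207, or 681 nt. MT-CO3 (ENSG00000198938) follows at chrM:9207-9990 with 784 nt, and MT-CYB (ENSG00000198727) lies apart at chrM:14747-15887 with 1141 nt. Between MT-CO1 and MT-CO2 are 140 nt, between MT-CO2 and MT-ATP8 96 nt, and between MT-CO3 and MT-CYB 4756 nt.

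The last 24 bases of each coding sequence show that the 6 mRNAs do not end alike. The genomic sequence is given 5′ to 3′, with the stop codon, or the base left over after the last whole codon, in capitals.
MT-CO1, chrM:7422-7445: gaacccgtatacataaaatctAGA
MT-CO2, chrM:8246-8269: atagggcccgtatttaccctaTAG
MT-ATP8, chrM:8549-8572: cattcattgcccccacaatccTAG
MT-ATP6, chrM:9184-9207: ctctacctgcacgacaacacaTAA
MT-CO3, chrM:9967-9990: tctccatctattgatgagggtctT
MT-CYB, chrM:15864-15887: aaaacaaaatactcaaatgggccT
MT-CO3 and MT-CYB each hold 1 base beyond whole codons and end in a single T, which in mitochondrial mRNAs is completed to a UAA stop by the poly(A) tail. MT-CO1 ends in AGA, a codon for arginine in nuclear genes that ends translation in human mitochondria. MT-CO2, MT-ATP8 and MT-ATP6 have a whole stop codon in the genome.

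The overlaps between neighbours matter for reading the levels, since fragments from a shared stretch fit both genes. MT-ATP8 and MT-ATP6 overlap by 46 nt (chrM:8527-8572), in different reading frames, and MT-ATP6 and MT-CO3 share 1 base (chrM:9207). In the 3 stretches below the capitals mark the start codon of MT-ATP6, the stop codon of MT-ATP8 and the start codon of MT-CO3.
Start of MT-ATP6 inside MT-ATP8, chrM:8527-8554: ATGaacgaaaatctgttcgcttcattca
End of MT-ATP8 inside MT-ATP6, chrM:8545-8572: gcttcattcattgcccccacaatccTAG
MT-ATP6 to MT-CO3, chrM:9195-9221: cgacaacacataATGacccaccaatca
The guanine content of the coding strand ran from 6.28% in MT-ATP8 and 10.4% in MT-ATP6 to 16.2% in MT-CO1, with 12.01% in MT-CYB, 14.8% in MT-CO3 and 14.9% in MT-CO2.

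Copies of these genes also lie in the nuclear genome. With at least 95% identity over at least 100 nt, MT-CO1 had 3 such copies, MT-CO2 and MT-ATP6 had 2 each, MT-CO3 and MT-ATP8 had 1 each, and MT-CYB had 0. A cluster on chromosome 1 (GRCh37) held whole copies of MT-CO1 (chr1:566454-567996, 98.6% identical), MT-CO2 (chr1:568137-568818, 98.0%), MT-ATP8 (chr1:568915-569121, 97.6%) and MT-ATP6 (chr1:569076-569756, 98.5%), and 70.0% of MT-CO3 (chr1:569756-570304, 98.2%). The copies with a matching transcript are pseudogenes in the annotation used here. That class lies outside the protein-coding and lncRNA transcripts to which the reads were assigned. The authors used an earlier release, and the class of the copies in it was not checked. Whether reads from the copies had an entry of their own is therefore not known, and the number of such reads was not measured.

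Depth was estimated from the steps between low values, since read counts were not used here. A value of 1 FPKM on 1 kb stood for 45.6 to 60.8 reads in nuclear, 31.8 to 48 in cytoplasmic/ER and 41.2 to 89.2 in total libraries, so that each member other than MT-ATP8 rested on an estimated 7221 to 1844770 reads per library. MT-ATP8 is shorter than the 250 nt subtracted in that estimate. Its reads were therefore not estimated. How far its FPKM depends on the effective length set by the authors' software was not tested. TPR, the target of the shRNAs, was at 25.3 to 28.2 FPKM in control, 3.44 to 4.70 in TPR A and 3.23 to 6.01 in TPR D total libraries. Of the markers of the line, VIM (854 to 2662 FPKM), SPARC (269 to 949), COL1A1 (20.6 to 87.5) and RUNX2 (6.25 to 25.1) were present, and COL1A2 was near absent at no more than 0.744. Among markers of other cell types, ALB stayed at or under 0.0481, CD3E at or under 0.0417 and PTPRC at or under 1.22 FPKM. CDH1 reached 1.67, EPCAM lay between 1.43 and 6.87, and PECAM1 was not matched.

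Of the 27 libraries, 25 resembled most the mean profile of their own fraction. The exceptions are the library labelled control nuclear, replicate 2, which resembled the total libraries most (r = 0.977, against 0.944 with the nuclear), and the library labelled control total, replicate 2, which resembled the nuclear libraries (r = 0.973, against 0.940 with the total). Both were kept under their labels. Results that rest on them are also given without that culture, named control replicate 2 below.

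The 6 mRNAs made up a large part of the cytoplasmic/ER RNA and little of the nuclear RNA. Their share of the summed FPKM had a median of 0.780% in the 9 nuclear, 24.2% in the 9 cytoplasmic/ER and 14.1% in the 9 total libraries. In the nuclear fraction the share was 0.666%, 15.9% and 0.663% in control replicates 1 to 3, 1.76%, 0.666% and 0.795% with TPR A, and 0.780%, 1.12% and 0.5263% with TPR D. In the cytoplasmic/ER fraction it was 25.3%, 26.8% and 19.6% in control, 27.8%, 23.3% and 20.4% with TPR A, and 26.3%, 21.6% and 24.2% with TPR D. The 3 shRNAs thus overlapped fully in that fraction. In the total fraction the share was 14.9%, 0.527% and 15.6% in control, 14.1%, 11.9% and 13.3% with TPR A, and 13.7%, 17.8% and 17.9% with TPR D. Both libraries that stand apart lay far outside the others of their labelled fraction, at 15.9% and 0.527%, while the cytoplasmic/ER library of the same culture, at 26.8%, lay within the range of its fraction.

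**Figure D1:**
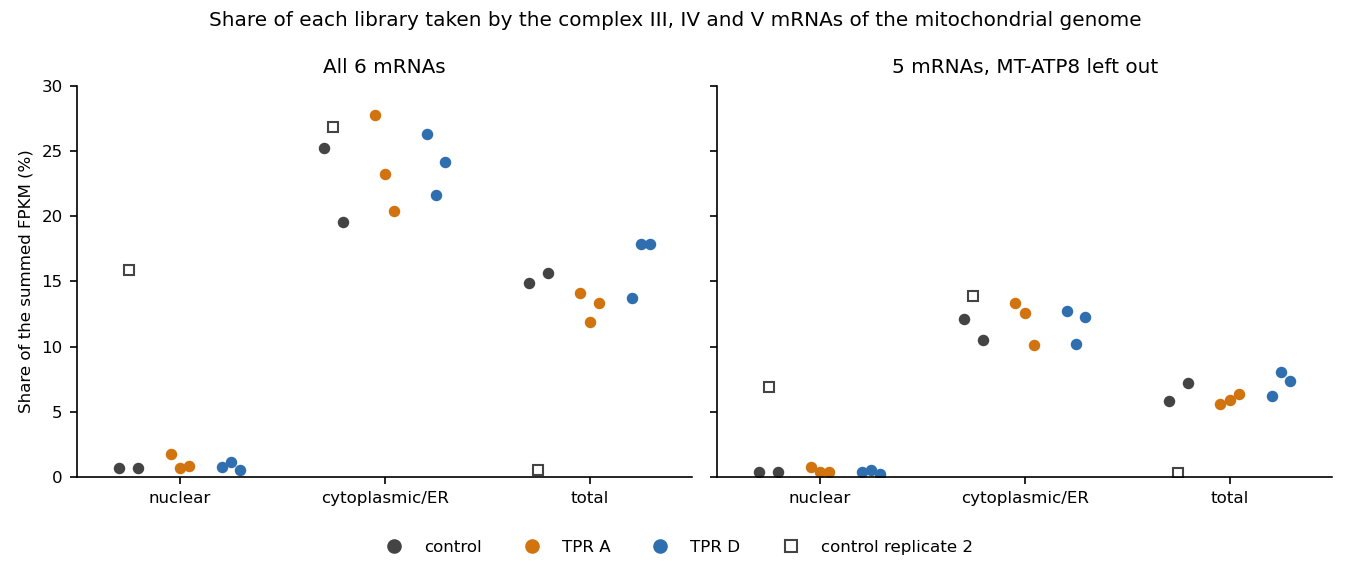
Share of the summed FPKM of each library (%, y axis) taken by all 6 mRNAs (left) and by 5 of them with MT-ATP8 left out (right), by fraction, with 1 point per library and open squares for control replicate 2. The cytoplasmic/ER points lie between 19.6% and 27.8% on the left, and the nuclear points at or under 1.76% apart from the open square at 15.9%.

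When control replicate 2 was left out, the share was 0.872% ± 0.397 in nuclear, 23.6% ± 2.88 in cytoplasmic/ER and 14.9% ± 2.13 in total libraries (SD, n = 8). Complex V contributed most of it, with 15.9% ± 2.46 of the cytoplasmic/ER total from its 2 genes, against 6.70% ± 0.611 from the 3 genes of complex IV and 0.927% ± 0.0948 from MT-CYB. Most of the complex V part was MT-ATP8, whose level is the least certain. With MT-ATP8 left out, the other 5 made up 11.7% ± 1.26 of the cytoplasmic/ER, 6.56% ± 0.881 of the total and 0.421% ± 0.151 of the nuclear libraries. Weighted by annotated length, which approximates a share of fragments, all 6 took 11.6% ± 1.29, 5.47% ± 0.642 and 0.351% ± 0.142. All 13 mitochondrial mRNAs together took 32.2% ± 3.95 of the cytoplasmic/ER libraries. Shares and FPKM are relative to the rest of a library, and in bulk RNA fewer cells and less RNA per cell cannot be told apart.

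MT-CO1 encodes the catalytic subunit of complex IV. Its nuclear level was 963, 10462 and 879 FPKM in control replicates 1 to 3, 1587, 1109 and 1088 with TPR A, and 1294, 1425 and 652 with TPR D. Its cytoplasmic/ER level was 29508, 32836 and 25155 in control, 31730, 34056 and 24218 with TPR A, and 27524, 23689 and 29097 with TPR D. In total libraries it stood at 7882, 1283 and 10945 in control, 8491, 9293 and 9117 with TPR A, and 8852, 11464 and 10174 with TPR D. Every cytoplasmic/ER value was above every total and every nuclear value, and within the cytoplasmic/ER fraction the shRNAs overlapped. The means without control replicate 2 were 1125 ± 303 in nuclear, 28122 ± 3687 in cytoplasmic/ER and 9527 ± 1233 FPKM in total libraries (SD, n = 8).

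MT-CO2 encodes the subunit that takes electrons from cytochrome c. Its nuclear level was 502, 12875 and 589 FPKM in control, 1265, 587 and 742 with TPR A, and 645, 1018 and 377 with TPR D. Its cytoplasmic/ER level was 52204, 69670 and 47857 in control, 44812, 63544 and 41225 with TPR A, and 42046, 56896 and 54438 with TPR D. In total libraries it stood at 10565, 529 and 13924 in control, 11214, 11330 and 10692 with TPR A, and 14331, 14759 and 12853 with TPR D. It was below MT-CO1 in 8 of 9 nuclear libraries, the exception being the library labelled control replicate 2, and above it in 9 of 9 cytoplasmic/ER libraries, with means of 716 ± 291 and 50378 ± 7803 FPKM without control replicate 2 (SD, n = 8).

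MT-ATP6 encodes subunit a of ATP synthase, part of its proton path. Its nuclear level was 702, 16200 and 555 FPKM in control, 1329, 599 and 677 with TPR A, and 567, 1034 and 327 with TPR D. Its cytoplasmic/ER level was 53978, 65684 and 37186 in control, 44724, 47050 and 33692 with TPR A, and 41090, 45420 and 41753 with TPR D. In total libraries it stood at 13220, 407 and 14592 in control, 11742, 11856 and 11120 with TPR A, and 13852, 17262 and 13513 with TPR D. As for the complex IV mRNAs, control and TPR-depleted libraries overlapped in each fraction.

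The remaining members had the same shape across fractions. MT-CO3, the third core subunit of complex IV, had means of 722 ± 296 in nuclear, 36999 ± 6523 in cytoplasmic/ER and 10526 ± 1184 FPKM in total libraries without control replicate 2 (SD, n = 8). MT-CYB had the lowest levels, with 336 ± 114, 15960 ± 2028 and 4642 ± 1043 FPKM in the same libraries. MT-ATP8 had the highest, with 3889 ± 2076, 230950 ± 40965 and 75855 ± 14029 FPKM. In control replicate 2 the nuclear and total levels were 12129 and 430 for MT-CO3, 5740 and 219 for MT-CYB, and 89627 and 2281 for MT-ATP8, so that for all 6 members the library labelled nuclear was above the library labelled total.

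**Figure D2:**
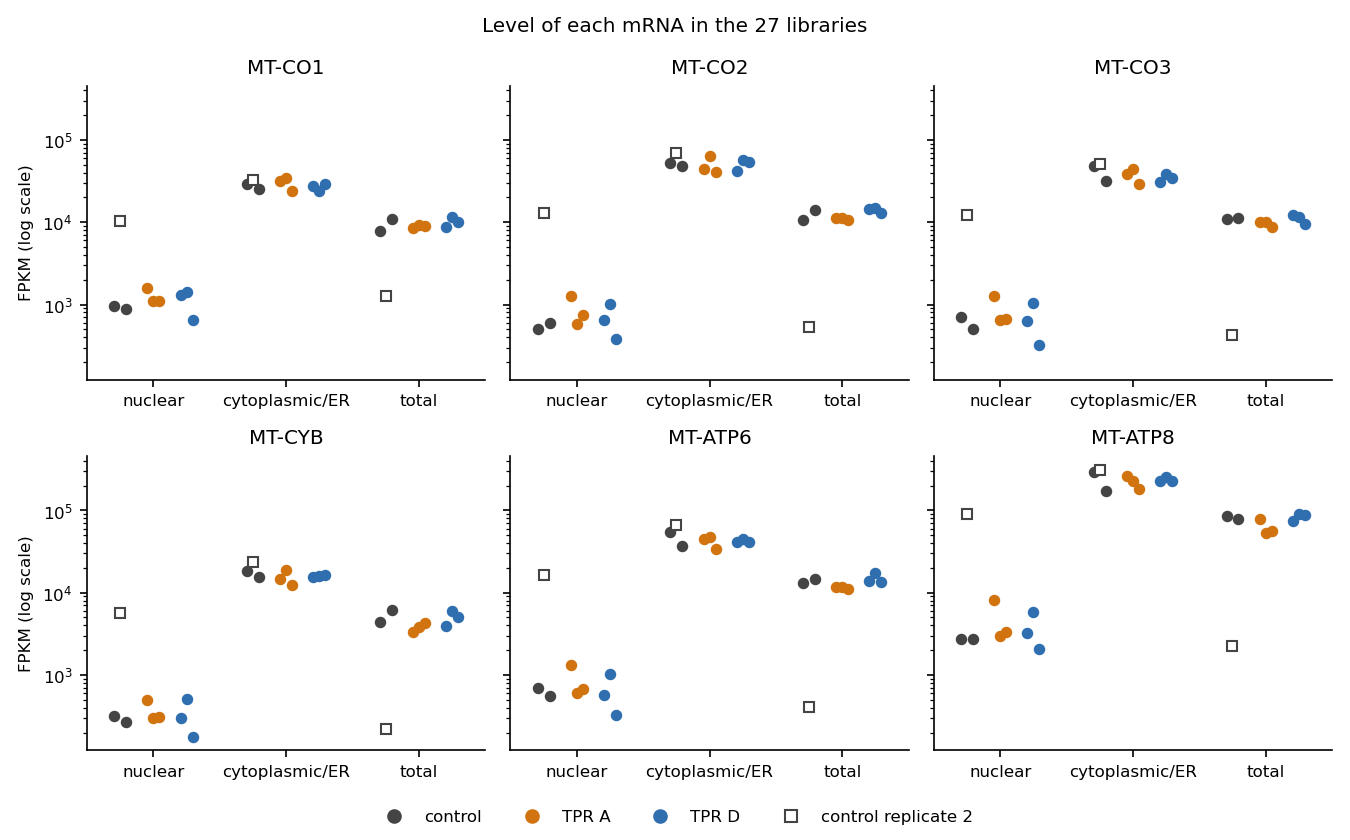
Level of each mRNA in FPKM (y axis, log scale) by fraction, with 1 point per library coloured by shRNA and open squares for control replicate 2. For each of the 6 mRNAs all cytoplasmic/ER points lie above all total and nuclear points, and each nuclear open square lies in the range of the other total points and each total open square in that of the other nuclear points.

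By level per length, MT-ATP8 was first and MT-CYB last in each of the 27 libraries, and the order between them changed with the fraction. In the cytoplasmic/ER fraction MT-CO2 (median 52204 FPKM) was above MT-ATP6 (44724) in 8 of 9 libraries, MT-ATP6 above MT-CO3 (38199) in 9 of 9 and MT-CO3 above MT-CO1 (29097) in 9 of 9. In the total fraction MT-ATP6 (13220) led MT-CO2 (11330) in 7 of 9 libraries, MT-CO2 led MT-CO3 (10028) in 8, and MT-CO3 led MT-CO1 (9117) in only 5, so the last pair did not differ beyond its spread. In the nuclear fraction MT-CO1 (1109) came first after MT-ATP8 and was above MT-ATP6 (677) in 8 of 9 libraries, the exception being labelled control replicate 2. MT-ATP6 and MT-CO3 (666; 5 of 9 libraries in this order) and MT-CO3 and MT-CO2 (645; 3 of 9) were not separated there.

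Against the cytoplasmic/ER fraction, all 6 members were lower in the nuclear fraction with each shRNA. With limma across 14624 genes and Benjamini-Hochberg adjustment, the log2 difference of nuclear minus cytoplasmic/ER in control cells was −3.77 ± 0.70 (SE) for MT-CO1 (adjusted p = 0.000264) and −5.12 ± 0.96 for MT-CO2 (adjusted p = 0.000318). The other 4 members lay between these, and the highest adjusted p of the 6 was 0.0015. With TPR A the differences ran from −5.89 (MT-CO2) to −4.57 (MT-CO1), and with TPR D from −6.31 to −4.63, the same genes at both ends, with adjusted p of at most 0.000587 and 0.000247. Of all genes tested, 39.4% passed in control, 28.5% with TPR A and 31.8% with TPR D, in either direction, and 19.3%, 13.3% and 14.7% passed as lower, against 6 of 6 members. All 6 passed again without control replicate 2, with control values from −6.49 to −4.86 and SE between 0.31 and 0.45. In that setting 2089, 2242 and 2355 of all 14624 genes passed as lower for control, TPR A and TPR D. The median difference over the members was −4.71 in control and −6.07 without that culture, beside a median over all genes that the scaling itself sets near 0. When FPKM were scaled instead to the sum over nuclear-genome genes, the median over all genes moved to 0.59, 0.38 and 0.40 for control, TPR A and TPR D and that over the members to −4.09, −5.19 and −5.55, with 6 of 6 called each time. Relative to the median of all genes the members then lay at −4.68, −5.57 and −5.96, against −4.696, −5.58 and −5.97 before. That scaling cut the lower calls from 48.9%, 46.6% and 46.1% of all calls to 12.5%, 15.4% and 16.7%.

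Culture by culture, the excess of the cytoplasmic/ER over the nuclear level was smallest for MT-CO1 in 9 of 9 cultures. For MT-CO1 the cytoplasmic/ER level was 29.97, 3.04 and 28.0 times the nuclear level in control replicates 1 to 3, 19.9, 30.4 and 22.2 times with TPR A, and 21.2, 16.5 and 43.2 times with TPR D. For MT-CO2 it was 102, 5.24 and 79.4 times in control, 35.2, 107 and 55.3 times with TPR A, and 64.8, 55.5 and 140 times with TPR D. MT-CO2 had the largest excess in 7 cultures, and MT-ATP6 and MT-ATP8 in 1 each. Over the 8 cultures without control replicate 2 the mean excess was 26.4-fold ± 8.5 for MT-CO1, 52.0 ± 19.8 for MT-CYB, 57.5 ± 23.4 for MT-CO3, 67.6 ± 27.8 for MT-ATP6, 68.5 ± 26.7 for MT-ATP8 and 79.9 ± 34.3 for MT-CO2 (SD). Within cultures, MT-CO2 had a larger excess than MT-CYB and MT-CO3 in 9 of 9, than MT-ATP6 in 8 and than MT-ATP8 in 7, while MT-ATP6 exceeded MT-ATP8 in 6 of 9. In control replicate 2 the excess was between 3.04-fold and 5.24-fold for all 6.

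**Figure D3:**
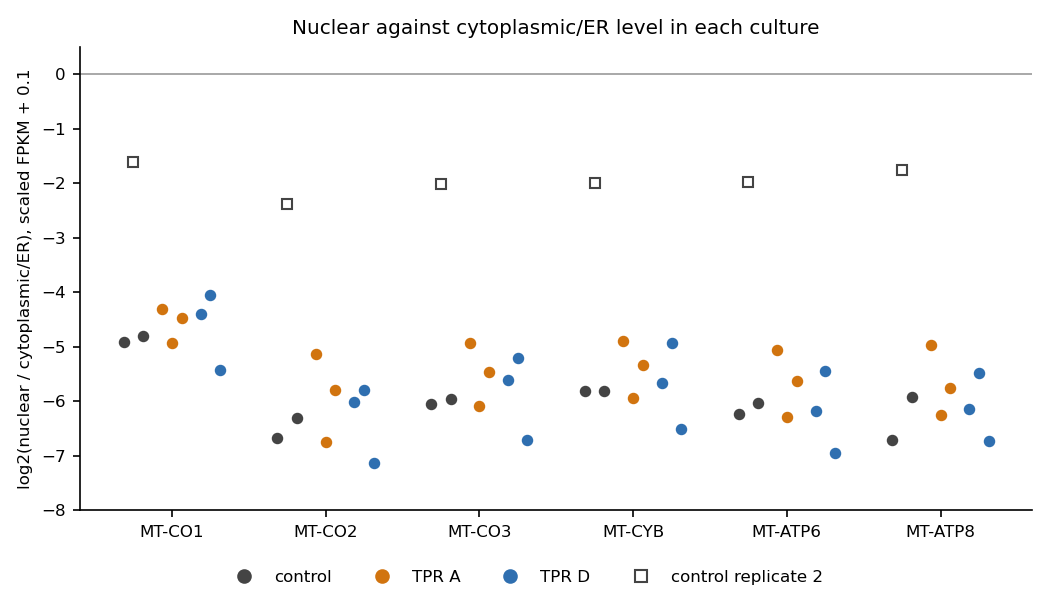
Log2 of the nuclear over the cytoplasmic/ER level of each mRNA (y axis, scaled FPKM plus 0.1), with 1 point per culture coloured by shRNA and open squares for control replicate 2. MT-CO1 lies highest within each culture, at a mean of −4.66 ± 0.44 (SD, 8 cultures) against −6.20 ± 0.64 for MT-CO2, and the open squares lie above all other points.

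The nuclear libraries also held the nuclear lncRNAs MALAT1 and NEAT1 at levels above the cytoplasmic/ER libraries, with medians of 22.97 against 9.05 FPKM and 38.4 against 8.84. Scaled to the nuclear-genome sum, their median log2 nuclear minus cytoplasmic/ER difference was 2.91, 2.18 and 2.56 for control, TPR A and TPR D. Total minus cytoplasmic/ER gave 3.31, 4.49 and 4.76, so by this median the total libraries held more of them than the nuclear libraries. HSPA5 and CALR, mRNAs translated at the ER, had higher medians in nuclear than in cytoplasmic/ER libraries (441 against 109 and 1615 against 964 FPKM). GAPDH and EEF1A1, translated in the cytosol, had lower medians in the nuclear libraries (6792 against 9413 and 6661 against 10221 FPKM). These medians are of FPKM without scaling. Scaled to the nuclear-genome sum, the list of 6 cytosol and ER markers, which also holds ACTB and COL1A1, had median differences of 0.47, 0.56 and 0.28. Of the 6, 3, 3 and 2 passed as higher in the nuclear fraction and 0 as lower. By that scaling 5729, 3790 and 4125 of all 14624 genes were higher. The part of carried-over cytoplasmic or ER material in the nuclear values of the 6 members was not tested.

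In total libraries the members also lay below the cytoplasmic/ER fraction. The log2 difference of total minus cytoplasmic/ER in control cells ran from −3.66 ± 0.96 for MT-CO2 to −2.54 ± 0.70 for MT-CO1, and all 6 passed (limma, adjusted p from 0.00564 to 0.0227, against 35.7% of all genes in either direction and 17.3% as lower). With TPR A it ran from −2.06 to −1.65 and with TPR D from −1.76 to −1.30, and 0 of 6 passed in either, where 32.9% and 39.9% of all genes did, 15.3% and 19.8% as lower. These calls turned on control replicate 2, whose libraries set the spread of the fit. Without it all 6 members passed for each shRNA, at −1.96 to −1.36 in control (limma, adjusted p from 0.0022 to 0.0268), −2.06 to −1.65 with TPR A (0.000107 to 0.00147) and −1.76 to −1.30 with TPR D (0.000281 to 0.0055). Of all 14624 genes, 4821, 5486 and 6516 passed in that setting for control, TPR A and TPR D, with 2386, 2661 and 3303 as lower. Scaling to the sum over nuclear-genome genes moved the median of all genes to 0.64, 0.61 and 0.63 and that of the members from −3.39, −1.81 and −1.49 to −2.72, −1.16 and −0.81, with 5, 0 and 0 called. Lower calls then made up 8.69%, 4.53% and 7.57% of all calls, against 48.6%, 46.3% and 49.6% before. Over those 8 cultures the log2 ratio of total to cytoplasmic/ER was −1.92 ± 0.29 for MT-CO2 and −1.47 ± 0.34 for MT-CO1 (SD).

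To compare the members with each other without the amount of mitochondrial RNA in a fraction, each was expressed as a percentage of the summed FPKM of the 13 mitochondrial mRNAs of its library. MT-CO1 took a larger part of the nuclear mitochondrial mRNA, and MT-CO2, MT-ATP6 and MT-ATP8 smaller parts, than in the cytoplasmic/ER fraction. A total of 30 two-sided exact permutation tests were run on these shares, and p-values were adjusted over them (Benjamini-Hochberg). The fraction tests pool the 3 shRNAs, 9 libraries against 9.

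The share of MT-CO1 in nuclear libraries was 11.2%, 5.18% and 11.1% in control, 8.10%, 12.4% and 11.01% with TPR A, and 13.2%, 9.35% and 11.3% with TPR D. In cytoplasmic/ER libraries it was 4.39%, 4.44% and 5.68% in control, 5.34%, 5.63% and 5.47% with TPR A, and 5.24%, 3.99% and 5.25% with TPR D. Apart from the library labelled control nuclear, replicate 2, the nuclear values all lay above the cytoplasmic/ER values. The means were 10.3% ± 2.44 and 5.05% ± 0.613 (SD, n = 9 each; exact permutation p = 0.000288, adjusted p = 0.00432), and 10.96% ± 1.61 and 5.12% ± 0.609 without control replicate 2 (n = 8 each, adjusted p = 0.00233 in the exact permutation test). In total libraries the share was 7.01% ± 4.11, and the difference from the cytoplasmic/ER fraction had an exact permutation p of 0.0427 and an adjusted p of 0.16. With the 2 fractions of each culture paired (sign changes over 9 cultures) that adjusted p was 0.0446. With control replicate 2 left out, whose total library had 17.8%, the mean was 5.66% ± 0.766 and the adjusted p in the unpaired exact permutation test was 0.39.

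MT-CO2 went the other way. Its share was 6.66% ± 0.528 in nuclear, 9.19% ± 1.18 in cytoplasmic/ER and 7.38% ± 0.878 in total libraries (SD, n = 9 each). Its highest nuclear value, 7.51%, was below its lowest cytoplasmic/ER value, 7.54%, so the fractions did not overlap (exact permutation p = 4.11e-05, adjusted p = 0.00123). Total against cytoplasmic/ER gave an exact permutation p of 0.00288 and an adjusted p of 0.0288, which became 0.0513 without control replicate 2. MT-ATP6 took 6.86% ± 0.837 of the nuclear and 7.91% ± 0.459 of the cytoplasmic/ER mitochondrial mRNA (exact permutation p = 0.00407, adjusted p = 0.0305, n = 9 each). MT-ATP8 took 36.3% ± 4.38 and 41.6% ± 2.26 (exact permutation p = 0.00708, adjusted p = 0.0425, n = 9 each). After removal of control replicate 2 the nuclear and cytoplasmic/ER shares of MT-ATP6 were 6.72% and 7.79%, and those of MT-ATP8 35.3% and 41.6%, each with an adjusted p of 0.014 in the exact permutation test. With any other single culture left out, the nuclear to cytoplasmic/ER tests of MT-CO1 and MT-CO2 kept an adjusted p of at most 0.0163 and 0.00466 in the exact permutation test. Those of MT-ATP6 did not pass without control replicate 3, TPR A replicate 2 or 3, or TPR D replicate 1, 2 or 3 (exact permutation, adjusted p up to 0.0862), and those of MT-ATP8 without any of these or without control replicate 1 (up to 0.118). Total against cytoplasmic/ER for MT-CO2 did not pass without control replicate 2 or 3, TPR A replicate 3, or TPR D replicate 2 or 3 (exact permutation, adjusted p up to 0.0746).

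MT-CO3 and MT-CYB did not pass. MT-CO3 took 6.65% ± 0.737 of the nuclear and 6.69% ± 0.468 of the cytoplasmic/ER mitochondrial mRNA (exact permutation p = 0.887), and MT-CYB 3.17% ± 0.351 and 2.94% ± 0.3 (exact permutation p = 0.15, adjusted p = 0.387, n = 9 each). These shares weigh each mRNA by FPKM and so depend on MT-ATP8. With FPKM multiplied by length, MT-CO1 made up 24.4% of the nuclear and 14.6% of the cytoplasmic/ER mitochondrial mRNA. MT-CO3 then also differed (8.14% and 9.84%, adjusted p = 0.00247 in the exact permutation test). So did MT-CO1 between total and cytoplasmic/ER (18.6% and 14.6%, adjusted p = 0.0418 in the same test). These length-weighted tests include control replicate 2, whose total library had an MT-CO1 share of 17.8% by FPKM. They were not run without that culture.

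**Figure D4:**
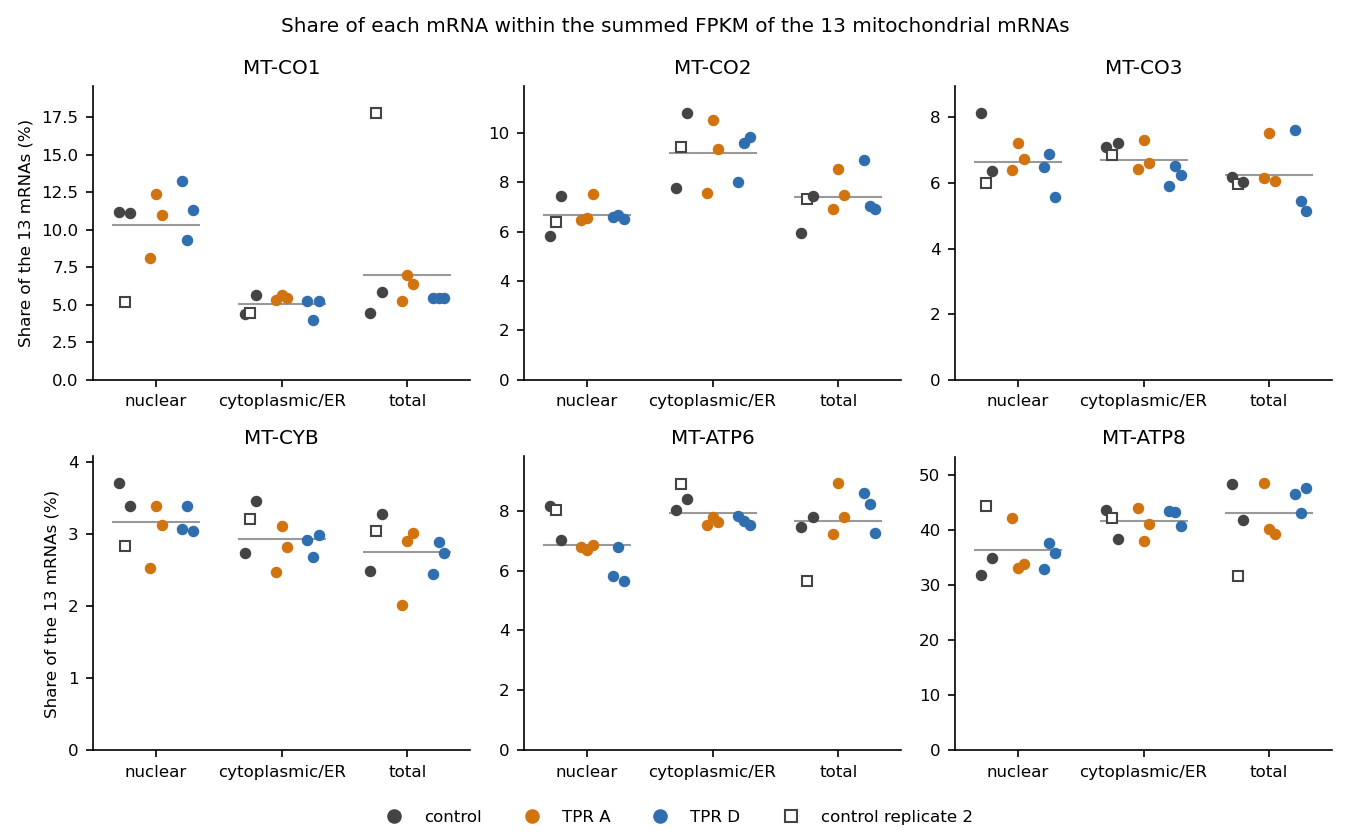
Share of each mRNA in the summed FPKM of the 13 mitochondrial mRNAs (%, y axis from 0) by fraction, with 1 point per library coloured by shRNA, open squares for control replicate 2 and grey lines for the mean of the 9 libraries. MT-CO1 is at a mean of 10.3% in the nuclear and 5.05% in the cytoplasmic/ER fraction, and MT-CO2 at 6.66% and 9.19%.

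The ratio of MT-CO1 to MT-CO2, which lie next to each other on the same precursor, needs no other gene. It was 1.92, 0.81 and 1.49 in the control, 1.25, 1.89 and 1.47 in the TPR A and 2.01, 1.40 and 1.73 in the TPR D nuclear libraries. In the cytoplasmic/ER libraries it was 0.57, 0.47 and 0.53 in control, 0.71, 0.54 and 0.59 with TPR A, and 0.65, 0.42 and 0.53 with TPR D. Every nuclear value, the library labelled control replicate 2 included, was thus above every cytoplasmic/ER value. The mean of the total libraries lay between those of the other fractions, at 0.77 ± 0.07 without control replicate 2 (SD, n = 8), and at 2.43 in the library so labelled. By contrast the ratio of MT-ATP8 to MT-ATP6, which share an mRNA, was alike in the 3 fractions, at 5.34 ± 0.75 in nuclear, 5.28 ± 0.44 in cytoplasmic/ER and 5.66 ± 0.76 in total libraries (SD, n = 9). It was not near 1 although both reading frames lie on the same mRNA, and the effective length used for MT-ATP8 was not examined.

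The comparisons with TPR-depleted cells asked whether loss of TPR changed the levels of these mRNAs. None of the 6 passed in any fraction with either shRNA. In the cytoplasmic/ER fraction the library of control replicate 2 resembled its own fraction most. There TPR A minus control was between −0.29 and 0.07 (median −0.17) and TPR D minus control between −0.27 and −0.05 (median −0.17), on a log2 scale with SE of 0.70 to 1.09. The ranges without control replicate 2 were −0.12 to 0.16 and −0.14 to 0.11, with SE of 0.29 to 0.41. The medians were then −0.03 and −0.02, and the sign turned for 2 of the 6 members with each shRNA. Of all genes 0.615% and 0.574% passed in these 2 comparisons.

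In the nuclear and total fractions the differences followed control replicate 2. In nuclear libraries TPR A minus control had a median of −1.002 over the 6 members (−1.18 to −0.73; limma, lowest adjusted p = 0.672) and TPR D minus control one of −1.38 (−1.67 to −0.95; lowest adjusted p = 0.705). Without control replicate 2 the medians were 0.45 and 0.14, and the sign turned for 6 and 5 of the 6 members. In total libraries TPR A minus control had a median of 1.39 (0.96 to 1.496; limma, lowest adjusted p = 0.556) and TPR D minus control one of 1.71 (1.15 to 1.86; lowest adjusted p = 0.396). These became −0.22 and 0.11 without control replicate 2, and the sign turned for 6 and 1 of the 6. The share of all genes that passed was 0.909% and 0.479% in the nuclear and 0.821% and 0.745% in the total comparisons, and 0 of 6 members is read against these low shares. The replicate numbers paired control and TPR A total libraries, and with the replicate block 376 genes in place of 120 passed in that comparison, still with 0 members.

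**Figure D5:**
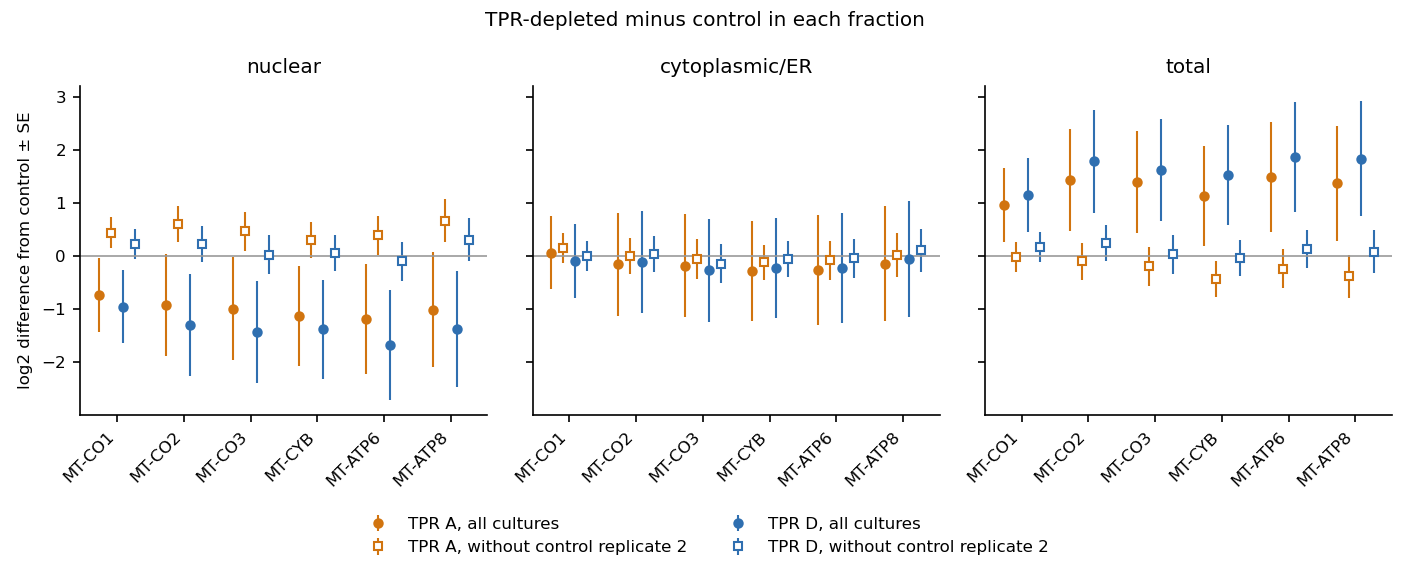
Log2 difference from control (y axis, points with SE from limma) of each mRNA in each fraction for TPR A and TPR D, with all cultures (filled) and without control replicate 2 (open squares). In the nuclear and total fractions the filled points lie between −1.67 and 1.86 and the open squares between −0.43 and 0.67.

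Replicate 1 was labelled in another style than replicates 2 and 3, so values were also taken within each set. In replicate 1 alone, TPR A minus control in nuclear libraries was 0.77 for MT-CO1, 1.39 for MT-CO2 and 0.97 for MT-ATP6, and TPR D minus control was 0.45, 0.38 and −0.29, with no test for single libraries. Within replicates 2 and 3, which hold the control culture that stands apart, the medians over the members for TPR A and TPR D were −2.06 and −2.12 in nuclear and 2.097 and 2.38 in total libraries, with 0 of 6 passing. The 2 sets thus gave nuclear differences of other sign for TPR A.

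The N/C change, which is the log2 nuclear to cytoplasmic/ER ratio with an shRNA minus that in control, was the study's own measure of export. The study left mitochondrial-genome genes out of it, used DESeq2 with shrunken fold changes and compared classes of genes. It reported a rise for classes such as histone, ribosomal protein and short, intron-poor mRNAs. For the 6 members the N/C change by limma was −0.91 to −0.77 with TPR A and −1.44 to −0.86 with TPR D (SE 0.98 to 1.54; 0 of 6 passed). It turned to 0.29 to 0.65 and to −0.05 to 0.23 without control replicate 2 (SE 0.40 to 0.58), with 6 and 5 of 6 members of other sign. By limma 0 genes of the whole table passed for either shRNA, with all cultures or without control replicate 2. With all cultures 215 and 121 genes had an unadjusted p under 0.05, fewer than this threshold marks by chance among 14624 genes. The test was thus conservative for the N/C change, and 0 of 6 members cannot be read as a lack of change.

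The shRNAs themselves were compared with each other, a comparison that holds no control library. TPR A minus TPR D had medians over the members of −0.36 in total, 0.37 in nuclear and −0.04 in cytoplasmic/ER libraries, and 0 of 6 passed in any, against 0.28%, 0.315% and 0.636% of all genes. With SE from 0.70 to 1.09, or 0.25 to 0.37 without control replicate 2, differences of the size seen in nuclear and total libraries were not detectable. In the nuclear and cytoplasmic/ER fractions the replicate numbers paired TPR A and TPR D, and the replicate block raised the genes called from 46 to 202 and from 93 to 195, again with 0 members.

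Shares within the 13 mitochondrial mRNAs were likewise compared between the 6 TPR-depleted and the 3 control libraries of each fraction, for which the smallest possible exact p is 0.0119. None passed after adjustment. The member that came closest was MT-ATP6. In nuclear libraries it took 8.14%, 8.02% and 7.02% of the mitochondrial mRNA in control, 6.79%, 6.69% and 6.84% with TPR A, and 5.81%, 6.78% and 5.66% with TPR D. In cytoplasmic/ER libraries it took 8.03%, 8.89% and 8.39% in control, 7.52%, 7.78% and 7.62% with TPR A, and 7.82%, 7.64% and 7.53% with TPR D. In both fractions every control value was above every TPR-depleted value (exact permutation p = 0.0119, adjusted p = 0.051, in each). In total libraries the means lay in the other direction, at 6.95% in control and 8.002% in TPR-depleted libraries (exact permutation p = 0.131). The control mean there includes control replicate 2 at 5.64%. Control replicates 1 and 3, at 7.44% and 7.77%, lay inside the TPR-depleted range of 7.23% to 8.91%. Without control replicate 2 the means were 7.58% and 6.43% in nuclear libraries (exact permutation p = 0.0714, adjusted p = 0.304) and 8.21% and 7.65% in cytoplasmic/ER libraries (exact permutation p = 0.0357, adjusted p = 0.179). With the fraction tests paired by culture, as the replicate block of this family, the adjustment over the 30 tests put both at 0.0446, their own exact p unchanged.

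The nuclear-encoded partners of these subunits are transcribed in the nucleus and translated in the cytosol, and they were followed as lists. In control cells 6 of 9 complex III, 8 of 12 complex IV and 12 of 18 complex V genes passed as lower in the nuclear than in the cytoplasmic/ER fraction and 0 as higher, with list medians of −1.01, −1.0002 and −0.95 against −4.71 for the 6 members. Among the largest were UQCRQ (−1.78), a small subunit of complex III, COX8A (−1.33), a small subunit of complex IV, and ATP5F1D (−1.59), the delta subunit of ATP synthase. Fewer passed in the other comparisons, with 4, 1 and 3 genes for TPR A and 4, 2 and 4 for TPR D, all as lower, and with 4, 4 and 6 in control without control replicate 2. Of all genes 19.3% passed as lower in control, 13.3% with TPR A and 14.7% with TPR D. In control without control replicate 2, 2089 of 14624 did. The medians with the TPR shRNAs lay between −0.60 and −0.32, and whether the lists differ between shRNAs was not tested. Scaling to the sum over nuclear-genome genes brought the control medians to −0.38, −0.38 and −0.33 and those with the TPR shRNAs to between −0.18 and 0.07, with at most 1 gene of a list lower and 1 or 2 higher, and the complex IV medians with both TPR shRNAs turned positive (0.07 and 0.03). The complex I mRNAs of the mitochondrial genome had medians of −4.47, −5.43 and −5.68 for control, TPR A and TPR D, with 6, 7 and 6 of 7 lower, and −5.75 in control without control replicate 2, with 7 of 7 lower.

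Between total and cytoplasmic/ER libraries 6, 6 and 8 of the 9 complex III genes, 9, 8 and 8 of the 12 complex IV genes and 15, 14 and 15 of the 18 complex V genes were lower in the total for control, TPR A and TPR D, and 1 complex IV gene was higher with TPR D. Of all genes 17.3%, 15.3% and 19.8% passed as lower. Scaled to the sum, 5, 2 and 1, then 8, 1 and 1, then 6, 1 and 2 were lower, and 1 complex IV gene was higher with each shRNA and 1 complex V gene in control. By that scaling 570, 267 and 493 of all 14624 genes were lower. The control counts include control replicate 2, whose library labelled total resembled the nuclear libraries, and are not given without it.

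Genes whose products make or handle mitochondrial RNA were followed too. Of 19 genes for mitochondrial RNA processing, polyadenylation and decay, 11 passed as higher in the nuclear fraction and 1 as lower in control, 10 and 1 with TPR A, and 11 and 1 with TPR D, where 20.1%, 15.2% and 17.1% of all genes passed as higher. The list medians were 0.73, 0.60 and 0.73. PNPT1, an exoribonuclease that degrades mitochondrial RNA with SUPV3L1, was at 1.75, 1.70 and 1.94 for control, TPR A and TPR D. LRPPRC, which with SLIRP stabilises mitochondrial mRNAs, was at 1.53, 1.37 and 1.42. Of 11 genes for mitochondrial transcription, 3, 5 and 4 passed as higher, 0, 0 and 1 as lower and the rest not at all. Among those higher was TFB2M, the factor that helps the mitochondrial RNA polymerase open the promoter (1.13, 1.39 and 1.24). Without control replicate 2 the processing list had 12 higher and 1 lower with each shRNA, and the transcription list 2, 6 and 4 higher. In that setting 2281, 2538 and 2777 of all 14624 genes were higher and 2089, 2242 and 2355 lower. Scaled to the sum, 15, 14 and 13 of the processing genes and 8, 8 and 7 of the transcription genes were higher. That scaling raised the higher calls over all 14624 genes too, from 2946, 2224 and 2508 to 5729, 3790 and 4125 for control, TPR A and TPR D. In the 6 comparisons of a TPR shRNA with control, 0 genes of the lists of complex subunits, transcription and processing passed.

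The list of assembly and translation factors for complexes III, IV and V (29 genes tested) had 11 genes lower and 1 higher in the nuclear than in the cytoplasmic/ER fraction in control, and 6 lower and 1 higher with each TPR shRNA. Of all genes 19.3%, 13.3% and 14.7% passed as lower and 20.1%, 15.2% and 17.1% as higher for control, TPR A and TPR D. Scaled to the sum, 3, 2 and 0 were lower and 7, 3 and 4 higher for control, TPR A and TPR D. By that scaling 816, 692 and 827 of all 14624 genes were lower and 5729, 3790 and 4125 higher. The list also held COX10, the single gene of all these lists that passed between a TPR shRNA and control. COX10 makes heme O, the precursor of the heme A of complex IV. In total libraries it was at 8.06, 6.83 and 9.42 FPKM in control, 8.78, 7.16 and 7.14 with TPR A, and 3.70, 3.79 and 3.17 with TPR D. In cytoplasmic/ER libraries it was at 16.3, 16.5 and 13.6 in control, 14.8, 14.8 and 12.02 with TPR A, and 5.44, 4.67 and 4.80 with TPR D. TPR D libraries did not overlap with the others, in nuclear libraries too (2.48 to 3.47 against 5.12 to 10.6). The log2 difference of TPR D minus control was −1.08 in total (limma, adjusted p = 0.0107), −1.37 in nuclear (adjusted p = 0.00273) and −1.59 in cytoplasmic/ER libraries (adjusted p = 0.000971), with SE 0.20. TPR A minus TPR D was 1.08, 0.96 and 1.47 (limma, adjusted p = 0.017, 0.0378 and 0.00129), and TPR A minus control did not pass in any fraction (−0.01, −0.41 and −0.13). MT-CO1, MT-CO2 and MT-CO3 did not pass in the same comparisons, as given above.

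The 6 members rose and fell together from library to library. Over the 27 libraries, which share fraction and depth, the Pearson r of log2 levels between pairs of members was 0.990 to 0.999, and 0.970 to 0.997 after removal of the group means, which leaves control replicate 2 in. Within the 8 nuclear libraries without that culture it was 0.886 to 0.987, within the 8 cytoplasmic/ER libraries 0.346 to 0.938 and within the 8 total libraries 0.191 to 0.844. The lowest of these were between MT-CO1 and MT-CO3 in the total and between MT-CO2 and MT-ATP8 in the cytoplasmic/ER fraction. Outside the 6, the genes with the most similar pattern over the 27 libraries were MT-ND2 (r = 0.999 with the mean log2 level of the members), MT-ND4 and MT-ND1 (0.998 each), MT-ND3 (0.997) and ENSG00000269028 (0.994), which had no match in the annotation used and a mean of 7307 FPKM.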

How the data were processed

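Poly(A)+ RNA of 27 libraries was analysed. The authors ran Salmon on Gencode transcripts (release 19, limited to protein-coding genes and lncRNAs), summed to genes with tximport and deposited FPKM values for 34464 genes (hg19). The versions of Salmon and tximport are not given in the sources used here. Copies outside those transcript classes in that release had no entry, and which copies these were was not checked. FPKM hold no counts, so depth was estimated from the steps of low values: 83.6% to 86.9% of these lay within 0.1 of a whole read, over 7308 genes.

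Of the gene IDs, 32776 matched GENCODE 44 and 1688 did not. FPKM were divided by a median-of-ratios factor taken over nuclear-genome genes (0.954 to 1.06). The 14624 genes with a mean above 1 FPKM, all 13 mitochondrial mRNAs included, were tested as log2(FPKM + 0.1) with limma 3.58.1 (trend, 9 groups, 18 residual degrees of freedom, R 4.3.3) and Benjamini-Hochberg adjustment at 0.05. A fold on this scale understates the change of low genes. Shares among the 13 mitochondrial mRNAs were tested by exact permutation of libraries (scipy 1.17.1). The fit was tested on simulated data. Nuclear copies were sought with blastn.

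Groups come from the labels. Fractions with the same number come from the same cells. Between shRNAs, the deviations of same-numbered libraries correlated above 0.1 in every pair for control and TPR A total (0.137 to 0.323), TPR A and TPR D nuclear (0.131 to 0.266) and TPR A and TPR D cytoplasmic/ER libraries (0.398 to 0.597), and not in every pair otherwise. Alternatives were other pseudocounts, minimums, scalings, fits, a replicate block and leaving out each replicate. The genes named are the 6 members, TPR, the markers, at most 4 genes of each list past the threshold with the largest log2 difference, and the 5 genes outside the 6 with the highest correlation to their mean. The members and lists were chosen with earlier results of these data known.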

Additional observations from a re-analysis of the deposited data

Results flagged for a closer look

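Of 48 groups of 4 to 10 libraries examined for a single value far from the rest (Dixon's test at 95%), 6 held one, and chance alone marks about 1 in 20. Of these, 4 belong to control replicate 2. The 6 mRNAs together took 15.9% of the summed FPKM in the library labelled control nuclear, replicate 2, where the nearest of the other nuclear libraries had 1.76%. They took 0.527% in the library labelled control total, replicate 2, where the nearest of the other total libraries had 11.9%. In that same total library MT-CO1 made up 17.8% of the 13 mitochondrial mRNAs, with the nearest other at 6.99%, and the MT-CO1 to MT-CO2 ratio was 2.43, with the nearest other at 0.853. Both shares of the summed FPKM lie within the range of the other labelled fraction of the remaining cultures. The MT-CO1 share of 17.8% and the ratio of 2.43 lie above the nuclear ranges of those cultures, 8.10% to 13.2% and 1.25 to 2.01. Whether the 2 labels were exchanged was not tested.

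The remaining 2 are small. MT-CO1 made up 3.99% of the mitochondrial mRNA in TPR D cytoplasmic/ER replicate 2, with the nearest of the other 5 TPR-depleted libraries at 5.24%. MT-CO2 made up 7.51% in TPR A nuclear replicate 3, with the nearest of the other 5 at 6.68%.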

How the results depend on the processing

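All 6 members stayed called in the nuclear to cytoplasmic/ER comparisons in every alternative with the exception of control within replicates 2 and 3, where 2 of 6 passed. The total to cytoplasmic/ER call was the least stable. In control all 6 passed, but 1 within replicates 2 and 3, 2 in a fit of only its own groups, and 5 with no minimum or with scaling to the sum over nuclear-genome genes. With TPR A and TPR D 0 passed, but 6 and 5 did in a fit of only their own groups, and leaving out 1 replicate at a time gave 0 to 6 for each, where 6 came from leaving out control replicate 2. The fits of fewer groups or replicates have fewer libraries behind their spread, and the cause of the other changes was not tested.

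Of the shares among the 13 mitochondrial mRNAs, 5 differed between fractions, 3 with the 6 members as the whole, 2 within replicates 2 and 3, and 2 to 5 with 1 replicate left out (2 without control replicate 3, TPR A replicate 3, TPR D replicate 2 or TPR D replicate 3, when the tests of MT-CO1 and MT-CO2 between nuclear and cytoplasmic/ER libraries passed). Paired by culture (the replicate block of this family) 6 did. Between TPR-depleted and control libraries 0 passed, but 2 did under that replicate block and 1 with FPKM multiplied by length, all of them MT-ATP6. The median share of a library fell to 12.2% in cytoplasmic/ER and 5.01% in total libraries with that weighting, and to 12.3% and 6.18% without MT-ATP8.

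In the limma fits the replicate block changed no call of a member. It raised the genes called over the whole table for TPR A and TPR D minus control from 120 to 376 and 109 to 461 in total, 133 to 374 and 70 to 229 in nuclear, and 90 to 330 and 84 to 261 in cytoplasmic/ER libraries, and for TPR A minus TPR D from 41 to 157, 46 to 202 and 93 to 195. Scaling to the sum over nuclear-genome genes shifted the median over all genes by up to 0.64 between fractions and turned the complex IV list of the nuclear genome positive with both TPR shRNAs (nuclear minus cytoplasmic/ER). Without control replicate 2 the counts were 41 and 70, 73 and 42, 84 and 61, and 77, 99 and 130 in the same order. The depth behind MT-ATP8 was not estimated, and the effect of its short length on its FPKM was not tested. For the other members the depth was at least 7221 estimated reads per library.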

Other observations

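Genes other than the 13 mitochondrial mRNAs with a pattern like that of the 6 mRNAs were looked up after the values were seen. The 4 with the highest correlation with their mean log2 level over the 27 libraries had no match in the annotation used (r = 0.994 to 0.990): ENSG00000269028, ENSG00000255633, ENSG00000271043 and ENSG00000255823. Of those with a symbol, MTRNR2L1 came next after these 4. MTRNR2L1, on chromosome 17 with sequence derived from mitochondrial rRNA, had r = 0.985 and medians of 51.2 FPKM in nuclear, 1083 in cytoplasmic/ER and 318 in total libraries. How many of its reads came from the mitochondrial genome was not tested. ENSG00000269028 had medians of 667, 16605 and 5049 FPKM in the same order.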
